A study of Mus musculus with 2 samples.

Results

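The 227 ERRα windows of mouse chromosome 4 are described here, out of 3225 windows on all chromosomes (7.04%). They were chosen as every row of the deposited peak list that lies on chromosome 4, and they were split at the midpoint between the first window start and the last window end, which left 64 windows on the proximal side, toward the centromere, and 163 on the distal side. Positions are on the mm9 build. The chromosome and the split were picked because the numbers on the 2 sides differ, so those numbers are a description and were not tested. The windows came from C2C12 cells, a mouse myoblast line, fused to myotubes over 72 h (2% horse serum); a PGC-1α adenovirus with a flag tag was then present for 48 h. Chromatin was precipitated with a rabbit monoclonal antibody to ERRα in 1 library, and whole-cell extract DNA of the same kind of myotubes gave 1 input library as background. Both groups carried the PGC-1α virus, and no cells without it entered the list. There was no replicate.

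ERRα, the product of Esrra, is an orphan nuclear receptor that binds DNA as a monomer or dimer at an extended half-site, TNAAGGTCA, and acts on genes of mitochondrial respiration and fatty acid oxidation. PGC-1α is a coactivator without DNA contact of its own that is recruited by ERRα and other factors and drives the oxidative programme of muscle. Mouse chromosomes have the centromere at one end, so the proximal side of chromosome 4 is its centromeric side. Such chromosomes alternate between gene-rich and gene-poor stretches of several megabases. The series maps where ERRα is recruited along the genome, and the spread of its windows is set here beside that of genes. Genes were counted in wide bins from the RefSeq table of GRCm38.p6, a later build, and no window was assigned to a gene. The peak list holds positions only: depth is unknown, and a window's sequence and strength were not analysed here.

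The distal side held more windows, and it also held more genes. Of the 227 windows, 71.8% were distal (95% exact binomial interval 65.5 to 77.6), and of 1301 protein-coding genes 68.6% were distal, inside that interval. The distal side had 163 windows where its gene share gives 156 and its share of the span gives 113.5. Per megabase the sides differed 2.55-fold, with 0.85 windows per Mb proximally and 2.17 distally. Genes stood at 5.44 and 11.9 per Mb of the same span. These counts include genes beyond the first and last window, so both gene densities are somewhat too high. Per 100 protein-coding genes there were 15.7 proximal windows (95% exact Poisson interval 12.1 to 20.03) and 18.3 distal windows (15.6 to 21.3), a distal to proximal ratio of 1.16 (0.87 to 1.58). These intervals cover counting error only and treat windows as independent, which neighbouring windows are not, so they are too narrow.

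The run of 12 evenly spaced windows between 88.42 and 88.45 Mb (its first window is the one that ends at 88419875, its last the one that starts at 88451876) lies on the distal side and makes up 7.36% of its windows. Without it, 151 distal windows remained, 70.2% of 215 (63.6 to 76.3), and the ratio per gene was 1.08 (0.80 to 1.47). When the chromosome was instead split where equally many protein-coding genes lie on each side, 118 windows fell on the proximal side and 109 on the distal side, 48.0% (41.4 to 54.7). Without the run, the distal share of that split was 50.7% (43.8 to 57.6). Along the chromosome, at 25%, 50% and 75% of the span, 12.8%, 28.2% and 54.2% of windows had been passed, against 13.5%, 31.5% and 53.8% of genes. The curves were widest apart at 88% of the span, with 73.1% of windows against 79.7% of genes, and, with windows ahead, at 60%, with 42.3% against 37.6%. Without the run, 71.6% of windows had been passed at 88% and 39.1% at 60%, so the lead at 60% came mostly from the run. At 5% of the span, 7.44% of windows without the run had been passed, against 2.56% of genes.

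**Figure D1:**
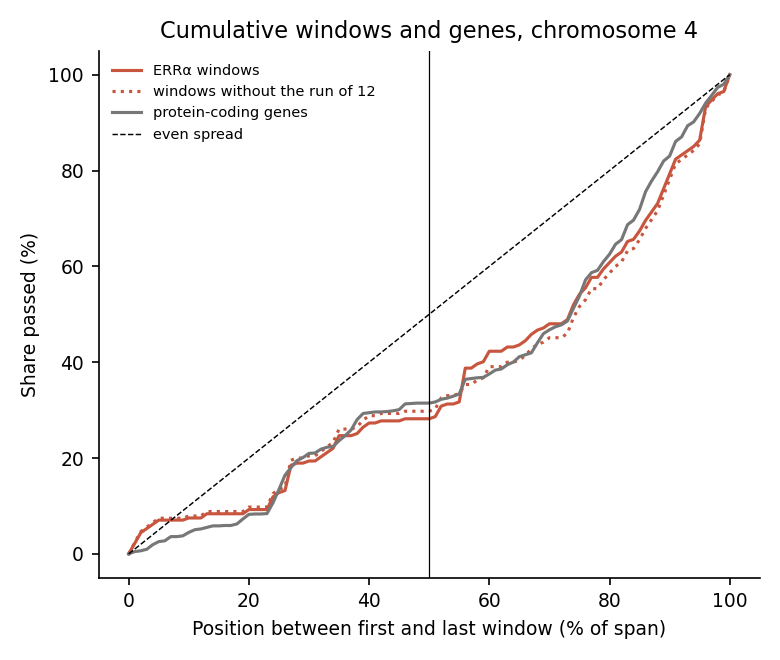
Share of ERRα windows (red), of windows without the run of 12 (dotted) and of protein-coding genes between the first and last window (grey), in percent, against position in percent of the span. At the midpoint (vertical line) 28.2% of windows and 31.5% of genes had been passed, both below the dashed line of an even spread.

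The ratio per gene moved with single stretches of the chromosome and with the kind of gene counted. Leaving out the bin from 5 to 10 Mb, which holds 18.8% of all proximal windows, raised it to 1.39 (1.01 to 1.94), and leaving out the bin from 40 to 45 Mb lowered it to 1.02 (0.74 to 1.40). With genes of every biotype in place of protein-coding genes it was 1.50 (1.12 to 2.03). The proximal side has 293 lncRNA genes and 267 pseudogenes in the table against 481 and 303 on the distal side.

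Across the 16 bins of 10 Mb, windows and protein-coding genes varied together, with a Spearman rho of 0.86 and a Pearson r of 0.83. Without the run of 12, rho was 0.89 and r was 0.89. Leaving out the most gene-rich bins, from 40 to 50 Mb and from 130 to 140 Mb, gave rho 0.82 and r 0.79 over 14 bins. Over 32 bins of 5 Mb, rho was 0.77 and r was 0.73, and without the run they were 0.78 and 0.75. The relation was present on each side taken alone: rho was 0.73 over the 16 proximal bins of 5 Mb and 0.70 over the 16 distal ones, or 0.77 distally without the run. Bin order along the chromosome gave lower coefficients, rho 0.58 for windows over the 10 Mb bins. All bins come from 1 chromosome and 1 library pair and share its depth and its gene table, so the coefficients are descriptions.

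**Figure D2:**
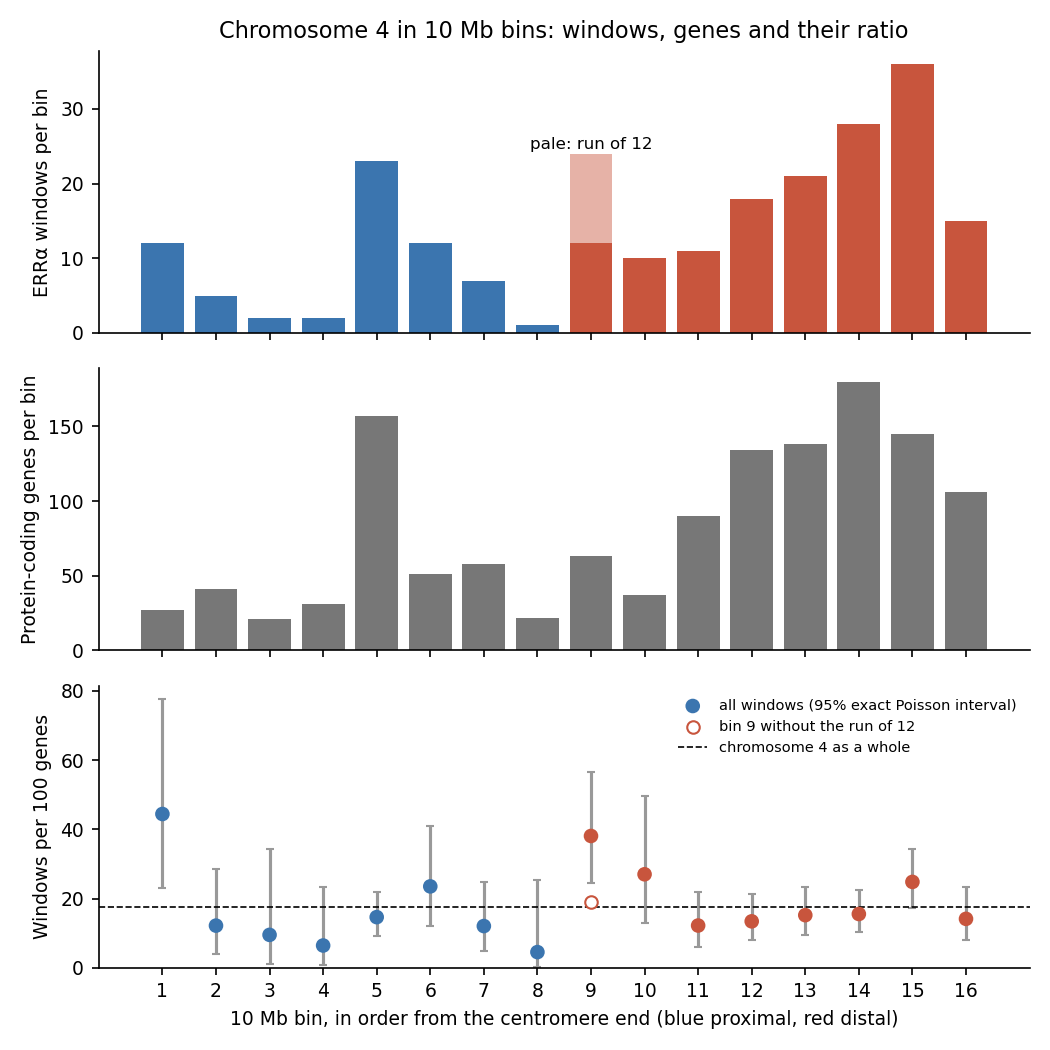
Top, ERRα windows per 10 Mb bin in order from the centromere end (blue proximal, red distal, pale the run of 12); middle, protein-coding genes per bin; bottom, windows per 100 genes with 95% exact Poisson intervals, the open point without the run and the dashed line the chromosome as a whole. Bin 1 with 44.4 and bin 9 with 38.1 windows per 100 genes have intervals above the line; bin 9 stands at 19.05 without the run, and bin 1 at 22.2 with the genes listed before 3 Mb.

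The bins with most windows were those from 140 to 150 Mb with 36, from 130 to 140 Mb with 28 and from 80 to 90 Mb with 24, of which 12 belong to the run. The bin from 130 to 140 Mb also has the most genes of any, 180, and the bin from 140 to 150 Mb has 145. Together, the 3 bins from 120 to 150 Mb held 37.4% of the windows and 35.6% of the genes. Proximally, the bin from 40 to 50 Mb stood out with 23 windows and 157 genes, between bins of 2 windows (31 genes) and 12 windows (51 genes). The fewest windows lay from 70 to 80 Mb, 1 window beside 22 genes, and from 20 to 30 Mb and 30 to 40 Mb, 2 windows each beside 21 and 31 genes. A count this low does not separate scarce binding from what the unknown depth missed.

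**Figure D3:**
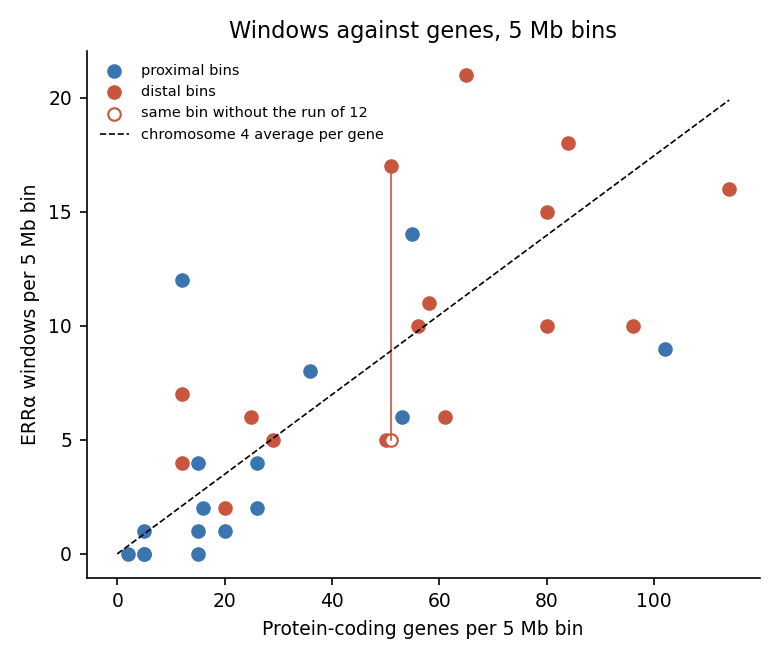
ERRα windows against protein-coding genes in the 32 bins of 5 Mb, proximal bins in blue and distal bins in red; the open circle is the bin with the run of 12 after leaving the run out, and the dashed line is the chromosome average per gene. The bin with 12 genes and 12 windows lies highest above the line on the proximal side, and the bin with 102 genes and 9 windows lies farthest below it.

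In most bins the number expected from the gene share lay inside the counting interval, which describes the counts and is no test. Bins with very few genes could not lie below. From 75 to 80 Mb, for example, 0.35 windows were expected, inside the interval of a count of 0. With windows handed out in proportion to genes, 14 of the 16 bins of 10 Mb had the expected number inside their 95% exact Poisson interval. Those above were the first, with 12 windows where 4.71 were expected, and the bin from 80 to 90 Mb, with 24 against 11.0. Without the run, the bin from 80 to 90 Mb had 12 windows against 10.4 and no longer stood above, while the bin from 140 to 150 Mb did, with 36 against 24.0. The call of the first bin depends on leaving out 27 protein-coding genes listed before 3 Mb: with them it has 54 genes, 22.2 windows per 100 (11.5 to 38.8) and 9.23 expected, inside its interval, and the bin from 140 to 150 Mb lies just above, with 36 against 24.8. In the table those genes stand after the position-ordered block of chromosome 4, where positions start again from low values. At 5 Mb, 27 of 32 bins included the expected number, 4 lay above and 1 lay below; without the run 3 lay above and 0 below. The bin below was that from 40 to 45 Mb, with 9 windows beside 102 genes where 17.8 were expected. It is the most gene-rich proximal bin of 5 Mb and holds the gene Tpm2, for a muscle tropomyosin, Galt, for an enzyme of galactose use, Ndufb6, for a subunit of respiratory complex I, and 6 copies of the chemokine genes Ccl19, Ccl21 and Ccl27.

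The stretch from 5 to 10 Mb, which holds none of the genes listed before 3 Mb, had the most windows for its genes, 12 windows beside 12 protein-coding genes, or 100 per 100 genes (51.7 to 174.7). Its windows were spread over 3.28 Mb rather than piled up at one site. Of the 12, 3 formed a run at chr4:8320526-8323350, and the other 9 had their nearest neighbour 45.95 to 241 kb away. The first window of the chromosome, chr4:5659776-5659975, belongs to it. The 12 genes, named here after the value was seen, are Fam110b, Ubxn2b, Cyp7a1, Sdcbp, Nsmaf, Tox, Car8, Rab2a, Chd7, Clvs1, Asph and Gdf6. Cyp7a1 encodes the rate-limiting enzyme of bile acid synthesis, Chd7 a chromatin remodeller, and Asph, through alternative products, the junctional protein junctin of the sarcoplasmic reticulum. Just before it, from 0 to 5 Mb, no window was listed beside 15 genes, an interval of 0 to 24.6 per 100 genes; with the genes listed before 3 Mb there are 42 genes (0 to 8.78 per 100) and 7.18 windows expected, so the bin would count as below its gene share. Which of these genes lies closest to a window on mm9 was not analysed here.

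The stretch from 80 to 85 Mb followed with 7 windows beside 12 genes, or 58.3 per 100 (23.5 to 120). It opens the distal side with the window chr4:81791276-81791475, and 4 of its 7 windows form pairs of starts 475 bp and 900 bp apart. Its genes, also named after the value was seen, include Nfib, for a transcription factor of the nuclear factor I family, Tyrp1, for a melanosomal enzyme, and Frem1, for an extracellular matrix protein. The bin from 145 to 150 Mb had the most windows of any 5 Mb, 21 beside 65 genes (32.3 per 100, 19.999 to 49.4), although 16 of those genes are Zfp zinc finger genes. It holds Mfn2, for a GTPase of mitochondrial fusion, Nppa and Nppb, for natriuretic peptides of heart muscle, Pgd, for an enzyme of the pentose phosphate pathway, and Slc25a33, for a mitochondrial nucleotide carrier. Its windows include a run of 4 at chr4:148139726-148159200 and a run of 3 at chr4:148809226-148812950.

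The longest stretches without a window were gene-poor. The longest 5 covered 36.8 Mb, 24.5% of the span, and held 84 protein-coding genes of the later build, 6.46% of those on the chromosome. That is 2.28 genes per Mb, against 8.33 over the whole span, where only genes between the first and last window are counted. They lie at chr4:24825576-34634500 (9.81 Mb, 26 genes), chr4:73785551-81791275 (8.01 Mb, 12 genes), chr4:12062276-19502150 (7.44 Mb, 21 genes), chr4:67778126-73785350 (6.01 Mb, 14 genes) and chr4:34725676-40226325 (5.50 Mb, 11 genes). All 5 begin on the proximal side. The second holds the midpoint, so any split placed within those 8.01 Mb gives the same 64 and 163 windows. Between the second and the fourth stands the most isolated proximal window, chr4:73785351-73785550, whose nearest neighbour is 6.01 Mb away, while the most isolated distal window, chr4:102763201-102763400, has one at 1.84 Mb. Of the 16 proximal bins of 5 Mb 4 were empty, with a median of 2 windows and 15.5 genes, and of the 16 distal bins 0 were empty, with a median of 10 windows and 57 genes.

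A larger share of distal windows had a close neighbour, in part through the run of 12, and the intervals of both sides overlapped. Another window start lay within 10 kb of 12 of 64 proximal windows (18.8%, 95% exact binomial interval 10.1 to 30.5) and of 51 of 163 distal windows (31.3%, 24.3 to 39.0). Without the run the distal share was 25.8%. Within 1 kb the shares were 12.5% and 13.5%. The median distance to the nearest window start was 102 kb proximally and 82.9 kb distally, or 94.2 kb without the run. Joining windows no more than 10 kb apart gave 57 proximal groups, with 52 single windows, 3 pairs and 2 runs of 3, and 130 distal groups, with 112 single windows, 13 pairs and 5 longer runs. The second proximal run of 3 lay at chr4:45535876-45544200, and a distal one at chr4:129984026-129990125.

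The even run is longer if a wider gap is allowed. Its 11 steps from start to start had a median of 2925 bp and an SD of 53.0 bp, and 5 of them were exactly 2925 bp. Just before it, 3 more windows, the last of them at chr4:88409451-88409650, stood 3175 and 2900 bp apart, and the distance from the last of them to the run was 10225 bp, 225 bp over the 10 kb that joins windows into a run. That distance is 3.50 median steps, so the 3 windows are not in phase with the 12. The 15 windows cover 48.7 kb and make up 9.20% of the distal windows. The window before them lies 35.6 kb away and the next one after them 2.98 Mb away. Leaving out all 15 gave a distal share of 69.8% and a ratio per gene of 1.06 (0.78 to 1.44). The bin from 85 to 90 Mb, which holds them, had 17 windows, of which 2 lie outside the 15, and 17 of the 18 interferon genes of the chromosome, a tandem family of antiviral cytokines with Ifnb1, Ifne and the Ifna genes. Whether the run lies inside that family on mm9 was not analysed here.

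**Figure D4:**
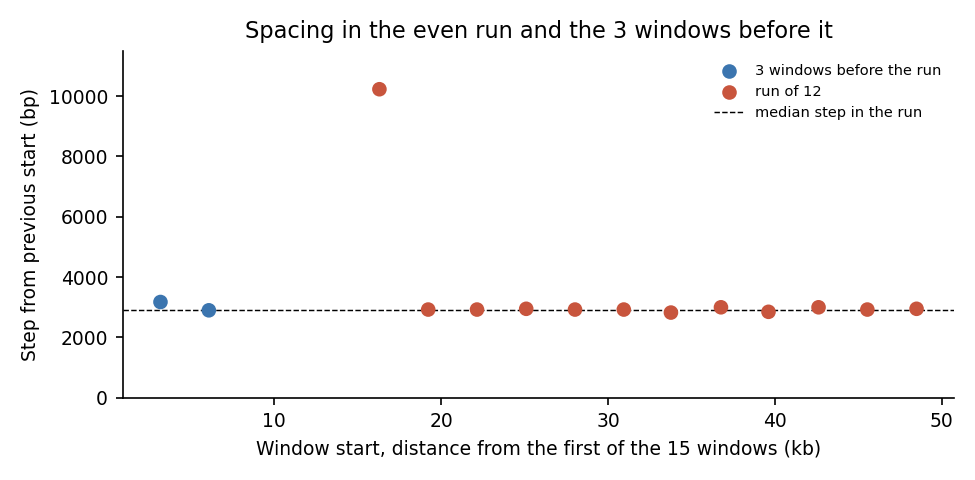
Distance of each window start from the previous one, in bp, against its distance from the first of the 15 windows, in kb; blue, the 3 windows before the run, red, the run of 12, whose first point is the step of 10225 bp from the windows before it. The 11 steps inside the run lie between 2825 and 3000 bp, on the dashed median of 2925 bp.

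Genes tied to ERRα function were placed at the scale of a bin. Of 32 genes in 6 lists of nuclear receptor regulators and mitochondrial metabolism, 25 were distal (78.1%), against 68.6% of all protein-coding genes. The list of regulators holds Errfi1, whose product inhibits ERBB receptors and which is no partner of ERRα; without it 24 of 31 were distal (77.4%). Its other members were distal too: Perm1, a muscle regulator induced by PGC-1 and ERR, Nr0b2, a nuclear receptor that represses others, the deacetylase gene Hdac1 and the corepressor gene Rere. Distal oxidative phosphorylation genes were Uqcrh of complex III, Ndufs5 of complex I, Sdhb of complex II and Atpif1, for an inhibitor of ATP synthase, while Ndufb6 and the assembly factor genes Ndufaf4 and Ndufaf6 were proximal. Of 7 genes of fatty acid oxidation and uptake, 6 were distal, among them Cpt2, the carnitine palmitoyltransferase of the inner mitochondrial membrane, and Fabp3, the fatty acid binding protein of heart and muscle. The proximal one was Decr1, for a reductase needed to oxidise unsaturated fatty acids. All 5 genes of mitochondrial dynamics and quality were distal, including Mfn2, Pink1 and Park7.

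These genes stood in bins about as rich in windows as those of other genes. The median number of windows in the 10 Mb bin of a gene was 21 for the 32 listed genes and 21 for all 1301. In the 5 bins with 20 windows or more stood 17 of the 32 (53.1%) and 52.5% of all protein-coding genes. Fabp3, Nr0b2 and Pink1 are in the bin from 130 to 140 Mb, with 28 windows. The bin from 150 to 160 Mb held 6 of the listed genes beside 15 windows (Rere, Errfi1, Park7, Acot7, Mrpl20 and Perm1). No listed gene lay in the first bin, from 30 to 40 Mb or in any bin from 50 to 100 Mb. Of these, the first bin and that from 80 to 90 Mb have 27 and 63 of the 1301 genes, so few listed genes would fall there by gene share. Of 13 muscle genes 10 were distal (76.9%), among them Pax7, the satellite cell factor, and Trim63, a ubiquitin ligase of muscle atrophy. Of 7 genes of glycolysis and glucose handling 5 were distal (71.4%). Both shares are near the 68.6% of all protein-coding genes.

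Leaving out 7 tandem gene families changed the ratio little. Other grouped genes, such as the 16 Zfp genes from 145 to 150 Mb, were kept. The 7 families looked at hold 130 of the 1301 genes, of which 66.2% were distal, and without them the ratio per gene was 1.15 (0.86 to 1.56). The 24 major urinary protein genes, for pheromone carriers of urine, were proximal, and the bin from 60 to 65 Mb with 23 of them had 6 windows. The 11 Skint genes, of skin and thymus, fell from 110 to 115 Mb beside 2 windows. From 140 to 145 Mb, 23 Pramel and oogenesin genes stood beside 15 windows. From 115 to 120 Mb, 13 olfactory receptor genes and 10 Cyp4 genes stood beside 16 windows. A further 7 Cyp2j genes fell from 95 to 100 Mb beside 6 windows.

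The ERR half-site was found in a smaller share of promoters on the distal side, and the difference comes from a single proximal bin with copied genes. RefSeq promoter sequences of GRCm38.p6, 250 bases before to 50 after a gene start, were searched on both strands for TNAAGGTCA and for GGGCGG, the core letters of an SP1 site, since the series concerns SP1 beside ERRα. The motifs do not overlap in their letters. Promoters matched 1067 of the 1301 protein-coding genes (82.0%). TNAAGGTCA was found in 27 of 2053 chromosome 4 promoters (1.32%, 95% exact binomial interval 0.87 to 1.91), against 1.28% of all 32851 promoters. It was in 15 of 625 proximal promoters (2.40%, 1.35 to 3.93) and in 12 of 1428 distal ones (0.84%, 0.43 to 1.46). Both numbers include copies: 7 of the 15 proximal matches, in promoters of 5 genes, lie in the same 39 bases. On the distal side Saxo1 and Saxo1os share 1 stretch, and Gm42333 is counted with 2 matches in the same stretch. Counted once per distinct stretch there were 9 proximal and 10 distal matches. The 9 still hold near copies, Ccl27a beside Ccl27b and Fam205a1 beside Fam205a2. Of the 15 proximal matches, 13 lie from 40 to 50 Mb, a bin with 254 of the 625 proximal promoters. The other 2 lie from 60 to 70 Mb, among 107 promoters, and the remaining proximal bins of 10 Mb held no match. The intervals treat copies as independent, so they are too narrow. GGGCGG was found in 35.5% of proximal and 42.9% of distal promoters, against 35.7% of all promoters.

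Some of these stretches are printed 5′ to 3′ on the strand of the gene, to show the copied stretch beside others on both sides. The match to TNAAGGTCA or its reverse complement is in capitals. The stretch printed for Ccl27b is identical in promoters of Gm13306, Gm20878, Gm21586 and Gm21953, and that of Ccl27a, another chemokine copy, resembles it. Tesk1 and Aptx are proximal genes of the same bin from 40 to 50 Mb; Frem1 and Saxo1 lie from 80 to 90 Mb, and Fhad1 and Zfp993 from 140 to 150 Mb. Of the 52 genes of the mitochondrial, regulator, glucose and muscle lists, 45 had a promoter in the table and 0 had a match. Among the 1067 protein-coding genes with a promoter the share was 1.87%, too low for 0 of 45 to set these lists apart. A match is a run of letters and not an ERRα window, and none of these promoters was placed against a window.
Ccl27b: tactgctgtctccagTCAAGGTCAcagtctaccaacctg
Ccl27a: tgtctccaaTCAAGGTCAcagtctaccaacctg
Tesk1: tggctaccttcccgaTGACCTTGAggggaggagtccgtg
Aptx: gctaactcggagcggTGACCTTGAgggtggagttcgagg
Frem1: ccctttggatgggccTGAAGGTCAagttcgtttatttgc
Saxo1: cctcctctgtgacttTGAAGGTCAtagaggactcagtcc
Fhad1: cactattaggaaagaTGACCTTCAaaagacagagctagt
Zfp993: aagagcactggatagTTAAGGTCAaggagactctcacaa

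The other autosomes were measured in the same way. Over the 19 autosomes, the distal share of windows and the distal share of genes had a Spearman rho of 0.89 and a Pearson r of 0.91, and both shares lay on the same side of 50% in 17. Chromosome 4 had rank 2 of 19 by its distal share of windows and rank 4 by its distal share of genes. Its windows exceeded its genes by 3.17 percentage points, rank 8, where the other 18 ranged from -10.0 to 16.8 with a median of 2.47, and 12 of them had a wider gap in either direction. Its rho between windows and genes over 10 Mb bins had rank 2, and the others ranged from 0.088 to 0.93 with a median of 0.69. These ranks count the run of 12. Without the run, 70.2% of chromosome 4 windows were distal against 68.6% of genes, and rho was 0.89. That narrower gap was not ranked. Chromosome 4 was not tested against the other chromosomes, and nothing here is called particular to it.

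**Figure D5:**
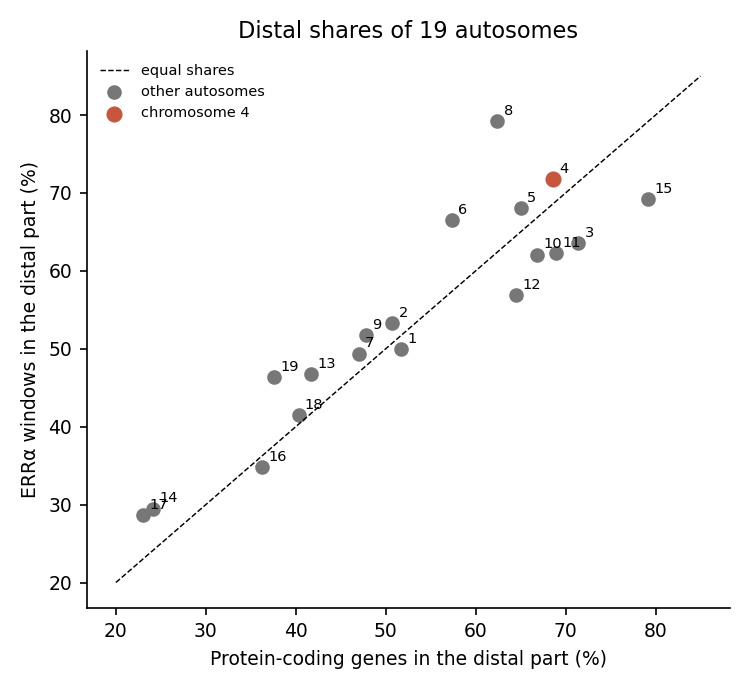
Share of ERRα windows in the distal part against share of protein-coding genes there, in percent, for each of the 19 autosomes (numbered), split at the midpoint between first and last window; the dashed line marks equal shares. Chromosome 4 (red) lies at 68.6% of genes and 71.8% of windows, close to the line.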

How the data were processed

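The deposited peak list locates windows, each 200 bp wide, and holds no other value. The submitters' processing notes name Bowtie 0.12.7 and the build mm9. Peak caller and threshold: not given in the sources used here. Positions are printed counted from 1. Genes were placed by the middle of their interval in the RefSeq table of GRCm38.p6, used for counts in bins of 5 or 10 Mb, sides and long stretches, and for names; 27 protein-coding genes listed before 3 Mb were left out, taken to lie on scaffolds: of the 69 rows before 3 Mb, 0 are in the position-ordered block of chromosome 4 and all follow it. With them the distal to proximal ratio per gene is 1.24 (0.92 to 1.68). Window share intervals are exact (Clopper-Pearson), counts per gene carry exact Poisson intervals, and the ratio takes its interval from the distal share. No test was run, since the members were chosen for these counts; members, bins and the 15 gene lists were chosen with earlier results of these data known. Named are listed genes, the fullest and emptiest bins, runs of 3 windows or more, the 5 longest stretches without a window and the most isolated windows; genes said to be named afterwards, the Zfp genes and the genes of printed promoters fall outside that rule. Steps were tested on simulated positions. Python 3.11.15, numpy 2.4.6, pandas 2.3.3, scipy 1.17.1 and matplotlib 3.10.9 were used.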

Additional observations from a re-analysis of the deposited data

How the results depend on the processing

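The distal share of windows stayed between 69.5% and 71.8% when the run of 12 or the 15 windows were left out, when runs counted once, and when the split was put at 80 Mb or at the middle of the gene span. Only the split at equal gene number turned it, to 48.0% (41.4 to 54.7), and without the run the share there was 50.7% (43.8 to 57.6). That split makes the gene numbers of both sides equal and leaves the window share free. The ratio per gene stayed above 1 in all 11 alternatives, from 1.02 without the bin from 40 to 45 Mb to 2.55 with megabases as the denominator. All 11 kept the split at the midpoint. At the split of equal gene number, which was not among them, 109 distal windows against 118 proximal ones put the ratio below 1. In the 11 alternatives the interval left out 1 only with megabases, with genes of every biotype and without the bin from 5 to 10 Mb. Moving gene positions by 1 Mb either way gave 1.18 and 1.16. With genes counted, the rank correlation over 10 Mb bins lay between 0.80 and 0.89, and over 5 Mb bins between 0.68 (2 Mb bins) and 0.84. With promoters holding TNAAGGTCA in place of genes it was 0.65 and 0.58. With all promoters it was 0.77 over 10 Mb bins. Only 27 promoters hold TNAAGGTCA, 13 of them from 40 to 50 Mb, and many bins of 10 Mb have 0. Shares of windows with a neighbour moved with the distance, to 50% proximally and 55.8% distally within 100 kb and to 13.5% distally within 1 kb. The alternatives with the 15 windows, genes before 3 Mb, single bins left out, each side alone and 2 Mb bins were chosen after seeing the data. No paired analysis was possible because 1 library stands in either group. Depth is unknown, so no statement on missed windows can be made.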
